A study of Homo sapiens with 2 samples.

Results

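The RNA exosome is described here through its 10 genes EXOSC1 to EXOSC10 in HT1080 cells, a long-established line from a human fibrosarcoma. The members were taken by name, as every probe set whose single gene symbol was one of these 10, and the complex itself was chosen by the log2 differences of these same 2 arrays, with earlier results in view. All values below are therefore a description and carry no test. The 10 genes were read by 11 probe sets out of 53617, and they are 10 of 14884 named genes. One array held RNA of cells infected with virus carrying an shRNA against cMyc, and the other held RNA of cells infected with virus carrying a non-targeting shRNA, both harvested after 48 hours. Both groups share the cell line and the viral infection, the labels name 1 sample for each, and no source used here gives the number or sequence of the hairpins. On this type of array, the Affymetrix Human Gene 2.0 ST, a gene's value (its probe set) summarises many short probes along the transcript.

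The exosome degrades and trims RNA from its 3′ end. Its core is a barrel: 6 ring subunits related to the bacterial enzyme RNase PH, topped by 3 cap subunits with RNA-binding S1 domains that guide RNA into the channel. In human cells the barrel itself has no catalytic activity, and RNA is cut by EXOSC10 in the nucleus and nucleolus, by DIS3 in the nucleus and by DIS3L in the cytoplasm. The complex matures the 3′ end of 5.8S ribosomal RNA, trims small nucleolar RNAs, and removes faulty or short-lived transcripts. MYC is a transcription factor that raises the output of growth genes, among them many that build ribosomes.

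Values are log2 expression levels as deposited, and a difference is the cMyc shRNA array minus the control shRNA array. With 1 array for each condition there is no spread between replicates and no difference has a replicate check. The only repeat available is between probe sets of the same gene, whose log2 differences had a technical SD of 0.34 over 416 genes. It holds no variation between cultures or infections. A gene counted as measured when its mean over both arrays reached 3.70, the median of all probe sets, and 10258 named genes did so, among them all 10 exosome genes. The median over all probe sets was 3.68 on the control array and 3.73 on the other. The shRNA's own target, MYC, had a level of 7.09 on the control array and 6.16 with the cMyc shRNA, a log2 difference of -0.93. Of the mesenchymal markers of the labelled cell type, 8 of 9 named ones were measured. On the control and cMyc shRNA arrays FN1 (fibronectin) read 12.4 and 12.6, and VIM (vimentin), by its brightest probe set, 9.94 and 9.34. TWIST1 was the dimmest of the measured ones, at 4.31 and 4.28. Of the epithelial markers 5 of 9 named ones were measured. KRT18 (9.09 and 8.41), CLDN3 (6.09 and 5.92), KRT8 (5.30 and 4.62) and KRT19 (4.31 and 3.85) read lower with the cMyc shRNA. CLDN7 (4.62 and 5.15) and the dimmer KRT18 probe set (6.12 and 6.23) read higher. EPCAM (2.73 and 3.07) was below the filter. Of the haematopoietic markers 2 of 4 named ones were measured, SPI1 (4.64 and 4.56) and CD68 (10.4 and 11.3), a lysosomal protein. The part of other cell types in the exosome values was not tested. The fibrillar collagens were not analysed here.

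All 10 exosome genes read lower on the cMyc shRNA array, and they are described here in 2 sets, divided by the 1.5-fold rule. The set of 5 that were at least 1.5-fold lower held EXOSC2, EXOSC5, EXOSC8, EXOSC9 and EXOSC7, with log2 differences from -1.91 to -0.71. The other 5, EXOSC4, EXOSC3, EXOSC6, EXOSC1 and EXOSC10, lay between -0.10 and -0.07, well inside the technical SD. No member lay between -0.71 and -0.10, a gap of 0.61. Within the lower set, EXOSC2 (-1.91) and EXOSC5 (-1.27) lay slightly further apart than that. The gap compares single probe sets and was not tested. Among all measured genes 51.3% were below 0, 11.9% passed 1.5-fold downward and 4.0% passed 2-fold downward. Among the members these counts were 10 of 10, 5 of 10 and 2 of 10. Since the complex was chosen on this contrast, nothing is read from these shares. The median difference of the members was -0.41, against -0.01 over all measured genes. That median falls in the gap, so no single subunit had a difference near it.

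**Figure D1:**
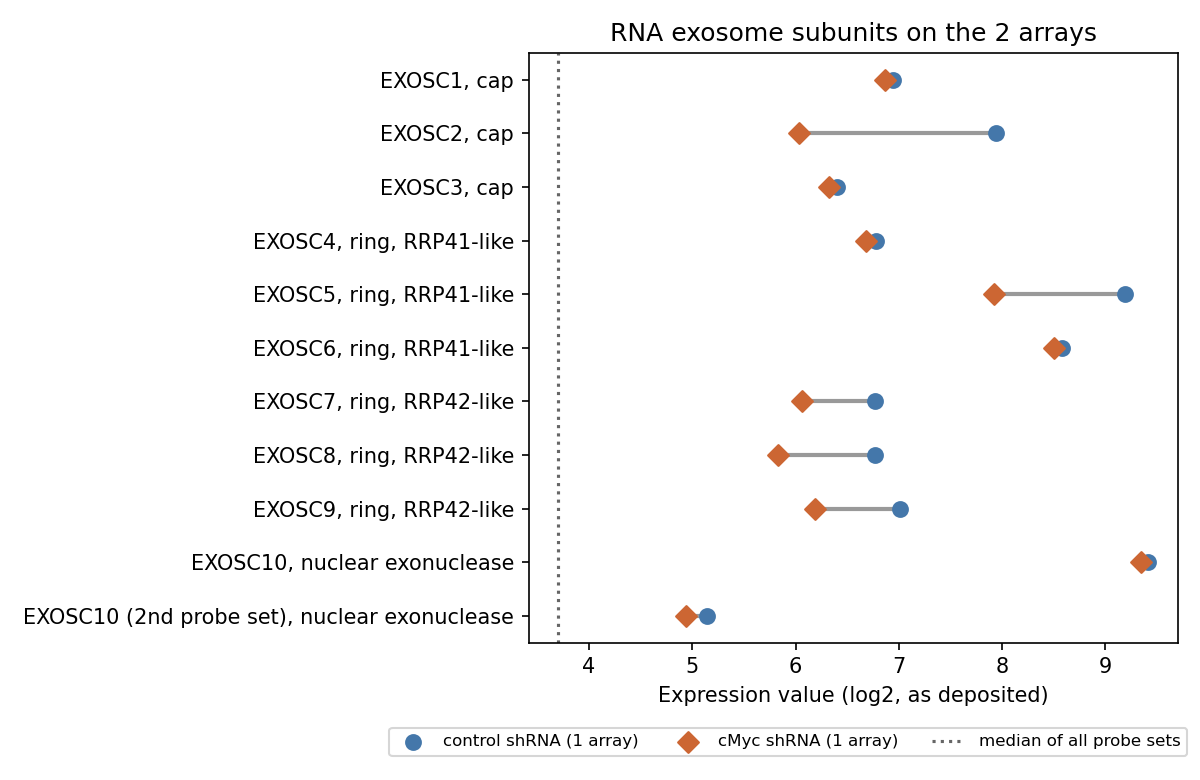
Log2 expression value (horizontal axis) of each exosome probe set on the control shRNA array (circles) and the cMyc shRNA array (diamonds), 1 array each, ordered by place in the complex; the dotted line is the median of all probe sets, 3.70. EXOSC2, EXOSC5, EXOSC7, EXOSC8 and EXOSC9 show long bars, and the symbols of the other 5 genes nearly coincide.

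The cap held the member with the largest difference. EXOSC2, the human counterpart of yeast RRP4, read 7.94 on the control array and 6.04 with the cMyc shRNA, a log2 difference of -1.91, or 3.75-fold lower. This is 5.67 times the technical SD, which holds no variation between cultures or infections. Of the 10258 measured genes, 61 had a lower difference. EXOSC1, the counterpart of CSL4, read 6.94 and 6.87, a difference of -0.07. EXOSC3, the counterpart of RRP40, whose mutation causes a form of pontocerebellar hypoplasia, read 6.40 and 6.32, a difference of -0.08. All 3 cap subunits carry an S1 domain and clasp the ring from the same side, and EXOSC2 alone among them passed 1.5-fold.

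The ring is built of 3 pairs, each joining a subunit of the RRP41-like kind (EXOSC4, EXOSC5 and EXOSC6) with a subunit of the RRP42-like kind (EXOSC7, EXOSC8 and EXOSC9). All 3 RRP42-like subunits were at least 1.5-fold lower. EXOSC8, the counterpart of RRP43, read 6.77 on the control array and 5.83 with the cMyc shRNA, a difference of -0.94 (1.91-fold lower). EXOSC9, the counterpart of RRP45 and known as an autoantigen in polymyositis and scleroderma overlap, read 7.01 and 6.19, a difference of -0.82 (1.77-fold lower). EXOSC7, the counterpart of RRP42, read 6.77 and 6.06, a difference of -0.71 (1.63-fold lower). These 3 lay within 0.23 of each other, which is less than the technical SD, so no order among them is readable.

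Of the RRP41-like subunits only EXOSC5 was at least 1.5-fold lower. EXOSC5, the counterpart of RRP46, read 9.19 on the control array and 7.92 with the cMyc shRNA, a difference of -1.27 (2.41-fold lower), and 215 measured genes had a lower difference. EXOSC4, the counterpart of RRP41, read 6.78 and 6.68, a difference of -0.10. EXOSC6, the counterpart of MTR3, read 8.58 and 8.51, a difference of -0.08. Set side by side as they pair in the ring, EXOSC5 and EXOSC8 were both lower, with differences 0.33 apart. In the pair of EXOSC4 with EXOSC9 the differences lay 0.72 apart, and in the pair of EXOSC6 with EXOSC7 they lay 0.63 apart, in both cases because the RRP42-like partner was lower. Each of these gaps compares 2 single probe sets, and none was tested.

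EXOSC10, the counterpart of RRP6, is the exonuclease of the nuclear and nucleolar exosome. Its brighter probe set read 9.41 on the control array and 9.35 with the cMyc shRNA, a difference of -0.07. Its other probe set read 5.14 and 4.94, a difference of -0.20. Both lay inside the technical SD, and EXOSC10 is the only member with a second reading. The dimmer one carries the same transcript accession, but of the 20 named probe sets nearest to it in number, all 17 with a strand in RefSeq belonged to plus-strand genes, whereas EXOSC10 lies on the minus strand. Around the brighter one 15 of 16 were minus-strand genes. RefSeq lists an antisense gene, EXOSC10-AS1, on the opposite strand at this locus, and which strand the dimmer probe set reads was not tested.

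**Figure D2:**
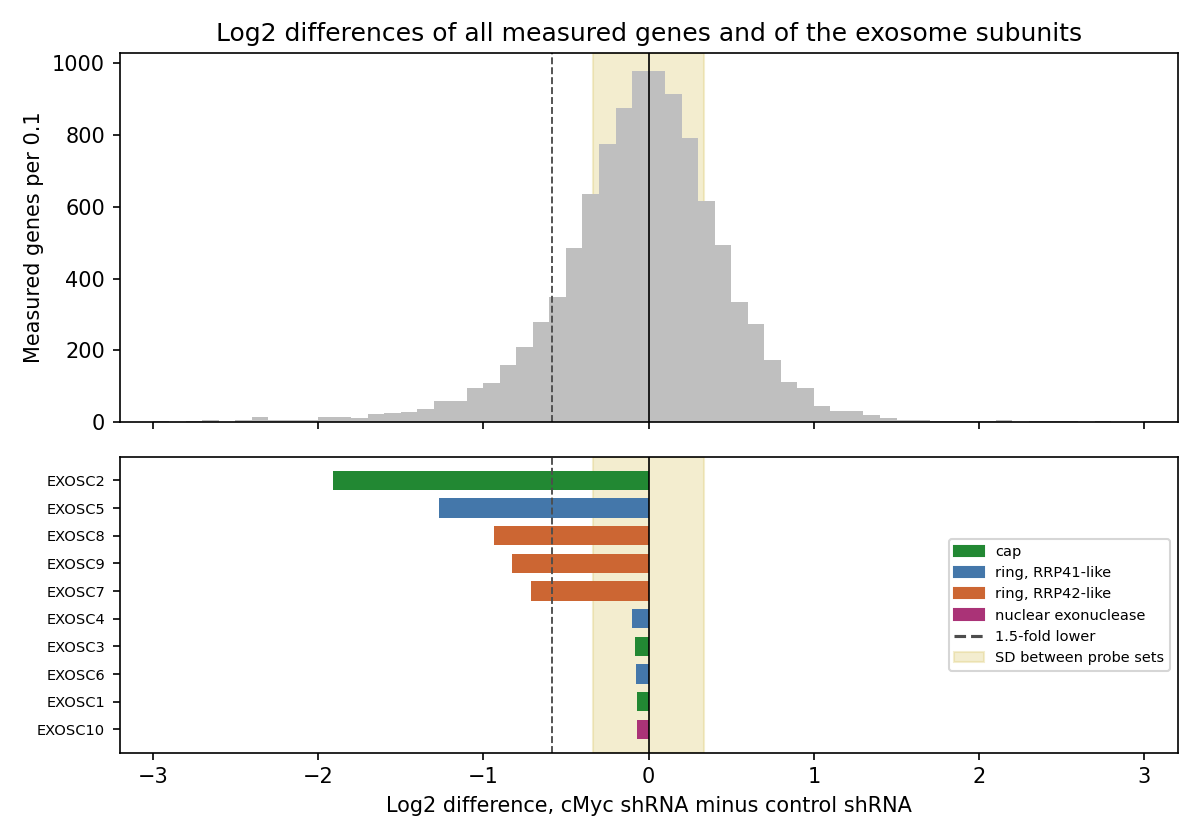
Upper panel, number of measured genes per 0.1 of log2 difference (cMyc shRNA minus control shRNA; genes beyond 3.2 are not drawn). Lower panel, the difference of each exosome gene, coloured by its place in the complex; the dashed line is 1.5-fold lower and the shaded band is the SD between probe sets, 0.34. The 5 lower members lie left of the dashed line, and the other 5 lie inside the band.

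The promoters were searched for short motifs, as a description of what their DNA holds. RefSeq (assembly GRCh38.p14) gave windows of 300 bases, 250 before and 50 after the annotated gene start, for 8 of the 10 members, in 9 windows, since EXOSC3 has 2. EXOSC1 and EXOSC4 were not analysed here. The canonical E-box CACGTG, the motif bound by MYC with its partner MAX, reads the same on both strands. It was present in 1 member, EXOSC5, at 2 places: 89 bases before the gene start and 15 bases after it. Of all 35116 promoter windows, 7.26% held at least 1. The variant CACGCG, searched on both strands, was in EXOSC5, EXOSC10 and 1 of the windows of EXOSC3, against 11.4% of all windows. CATGTG was in none of the 9 windows, against 11.1%. EXOSC2, the member with the largest difference, held none of these E-box forms, and neither did EXOSC7, EXOSC8, EXOSC9 or EXOSC6.

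The 250 bases before the gene start are printed for the 2 members with the largest differences, EXOSC2 and EXOSC5, and for 2 members near 0, EXOSC6 and EXOSC10. Capitals mark the E-box CACGTG, its variant CACGCG and the box CCAAT, each on either strand, and each sequence reads 5′ to 3′ along its gene's strand.
EXOSC2: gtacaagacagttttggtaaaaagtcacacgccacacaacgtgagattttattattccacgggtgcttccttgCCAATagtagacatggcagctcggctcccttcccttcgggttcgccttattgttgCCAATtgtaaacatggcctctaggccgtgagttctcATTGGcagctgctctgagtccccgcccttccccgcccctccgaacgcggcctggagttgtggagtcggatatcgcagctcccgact
EXOSC5: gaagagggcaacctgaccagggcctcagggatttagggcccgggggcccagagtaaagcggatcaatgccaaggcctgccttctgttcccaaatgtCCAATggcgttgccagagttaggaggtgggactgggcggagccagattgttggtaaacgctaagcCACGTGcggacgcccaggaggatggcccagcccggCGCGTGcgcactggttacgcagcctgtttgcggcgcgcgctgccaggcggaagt
EXOSC6: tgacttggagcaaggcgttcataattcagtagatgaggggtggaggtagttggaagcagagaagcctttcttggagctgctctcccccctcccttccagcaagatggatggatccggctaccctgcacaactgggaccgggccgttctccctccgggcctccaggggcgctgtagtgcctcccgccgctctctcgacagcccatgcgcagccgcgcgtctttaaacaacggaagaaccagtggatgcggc
EXOSC10: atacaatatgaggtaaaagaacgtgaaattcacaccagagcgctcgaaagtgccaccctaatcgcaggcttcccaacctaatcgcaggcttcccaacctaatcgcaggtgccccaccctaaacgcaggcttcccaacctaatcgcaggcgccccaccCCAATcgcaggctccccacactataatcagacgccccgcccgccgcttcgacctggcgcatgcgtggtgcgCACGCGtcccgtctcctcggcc
These lie at chr9:130693510-130693759 (plus strand) for EXOSC2, chr19:41397360-41397609 (minus) for EXOSC5, chr16:70251941-70252190 (minus) for EXOSC6 and chr1:11099870-11100119 (minus) for EXOSC10. The second E-box of EXOSC5 lies just inside the transcribed part, at chr19:41397328-41397357 with its surrounding 30 bases. It is shown because no other member with a window has an E-box there.
EXOSC5, after the start: caactgcagccgCACGTGggctcggcgcga

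EXOSC2 differs from the other printed promoters by its CCAAT boxes. It holds 4 in its window, 3 of them before the gene start at 177, 122 and 86 bases, and EXOSC5, EXOSC9 and EXOSC10 hold 1 each, and EXOSC6 none. On both strands, 34.6% of all windows hold at least 1 CCAAT. GC boxes, GGGCGG on either strand, were in 7 of the 8 members, all but EXOSC9, against 45.0% of all windows. CCAAT stands in EXOSC2, EXOSC5 and EXOSC9, which were at least 1.5-fold lower, and also in EXOSC10, which was within 1.5-fold. EXOSC7 and EXOSC8, also at least 1.5-fold lower, have neither CCAAT nor an E-box form. EXOSC1 and EXOSC4, both within 1.5-fold, have no promoter window here. Whether the motifs sort the members by their differences was not tested. No matches overlapped. A match says only that the letters are there, and binding was not measured.

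**Figure D3:**
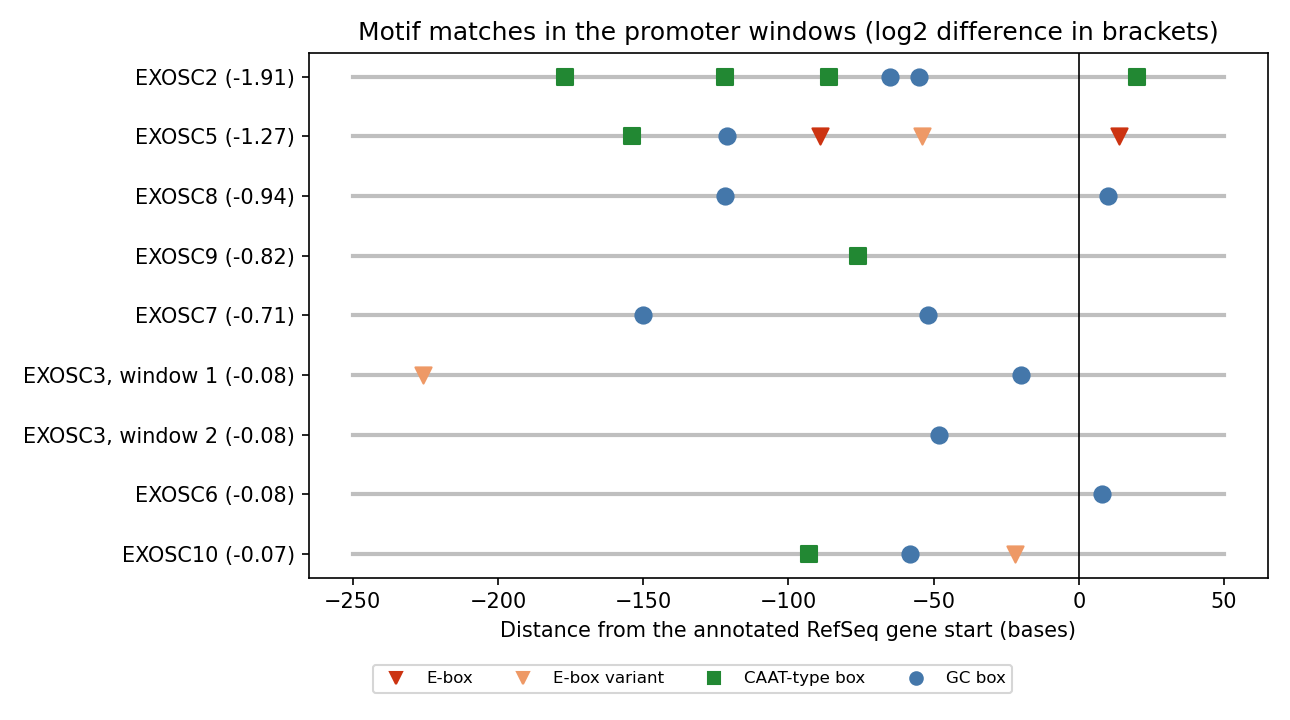
Position of each motif match (bases from the annotated RefSeq gene start) in the 9 promoter windows of 8 members, ordered by log2 difference, given in brackets; markers show the E-box, its variant forms, the CCAAT (CAAT-type) box and the GC box. The E-box appears in EXOSC5 only, and EXOSC2 carries 4 CAAT-type boxes.

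The exonucleases that dock on the barrel did not move together. DIS3L, the cytoplasmic catalytic subunit, read 7.22 on the control array and 6.20 with the cMyc shRNA, a difference of -1.01 (2.02-fold lower). DIS3, the nuclear one, read 9.89 and 9.99, a difference of 0.09. DIS3L2, a relative that works without the exosome and degrades RNA with uridine tails, read 6.65 and 6.82, a difference of 0.17. PNPT1, a mitochondrial exonuclease whose ring is built of the same RNase PH fold, read 8.91 and 10.1, a difference of 1.14 (2.20-fold higher). PNPT1 is known to be induced by interferon, and among 16 measured interferon-stimulated genes 15 exceeded 2-fold in the same direction, the list's median being 4.02. Over all measured genes, 8.77% passed 1.5-fold upward and 2.01% passed 2-fold upward. The interferon list was chosen with earlier results of these data known, so nothing is read from its count. The part of the interferon response in the exonuclease values was not tested.

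Nuclear cofactors bring RNA to the exosome. Of the 19 listed, 12 had a probe set under their symbol, and all 12 were measured. In this and the lists below, genes left out had no such probe set, so their level is not known. Of the 12, 9 were below 0, 3 passed 1.5-fold downward and 1 upward. Over all measured genes these shares were 51.3%, 11.9% and 8.77%. The median was -0.18 (-0.33 under a stricter level filter, the 75th percentile). TENT4B, the poly(A) polymerase that tags RNA for decay in the TRAMP complex, read 7.91 and 6.86, a difference of -1.05. Its relative TENT4A differed by -0.67. MTREX, the helicase that feeds RNA into the nuclear exosome, read 9.65 and 9.05, a difference of -0.60. RBM7, the RNA-binding subunit of the NEXT complex, was highest at 0.71, and NRDE2, an inhibitor of MTREX, followed at 0.31.

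In the cytoplasm the Ski complex threads messenger RNA into the exosome. Of the 9 listed cytoplasmic factors 6 were measured, none reached 1.5-fold, and the median was 0.20 (0.09 with that stricter filter). Over all measured genes 11.9% passed 1.5-fold downward and 8.77% upward, so nothing is read from that count among 6 genes. The Ski helicase SKIC2 differed by -0.42, the scaffold SKIC3 by -0.03 and the WD-repeat subunit SKIC8 by 0.43. HBS1L, whose gene also gives the adaptor between the Ski complex and the exosome, differed by 0.31, FOCAD, which stabilises the Ski complex, by 0.09, and the GTPase GTPBP2, a ribosome rescue factor, by 0.55. SKIC3, HBS1L and FOCAD lay inside the technical SD of 0.34, whereas SKIC2, SKIC8 and GTPBP2 lay outside it, the largest at 0.55.

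The ribosomal RNA step that the exosome shares with other factors, maturation of the spacer between the large-subunit RNAs, had 7 measured genes of 10. Their median was -0.35 (-0.21 with the stricter filter), 5 were below 0 and 1 was at least 1.5-fold lower. Over all measured genes these shares were 51.3% and 11.9%. ERI1, an exonuclease that trims 5.8S ribosomal RNA, was lowest at -0.70, followed by LAS1L, the endonuclease that cuts the spacer (-0.58), and TEX10 (-0.44). NOP53 and NVL, both of which link the pre-ribosome to MTREX and the exosome, were highest at 0.21 each. The wider ribosome biogenesis list had 22 measured genes of 34 and a median of -0.51, with 21 below 0 and 11 at least 1.5-fold lower. LYAR (-1.80), MYBBP1A (-1.39) and RRP1B (-1.32) were its lowest, and NIP7 (-0.21) and LTV1 (0.04) its highest. Beside these 11 of 22, the exosome count was 5 of 10, and the difference between the lists was not tested. Subunits of RNase P and RNase MRP, which cut transfer RNA and ribosomal RNA precursors, had 7 measured genes of 11. All 7 were below 0, with a median of -0.15 (-0.07 after quantile normalization) and none past 1.5-fold. They ran from RPP30 (-0.48), RPP14 (-0.21) and RPP25 (-0.20) to RPP21 (-0.03) and RPP25L (0.00).

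**Figure D4:**
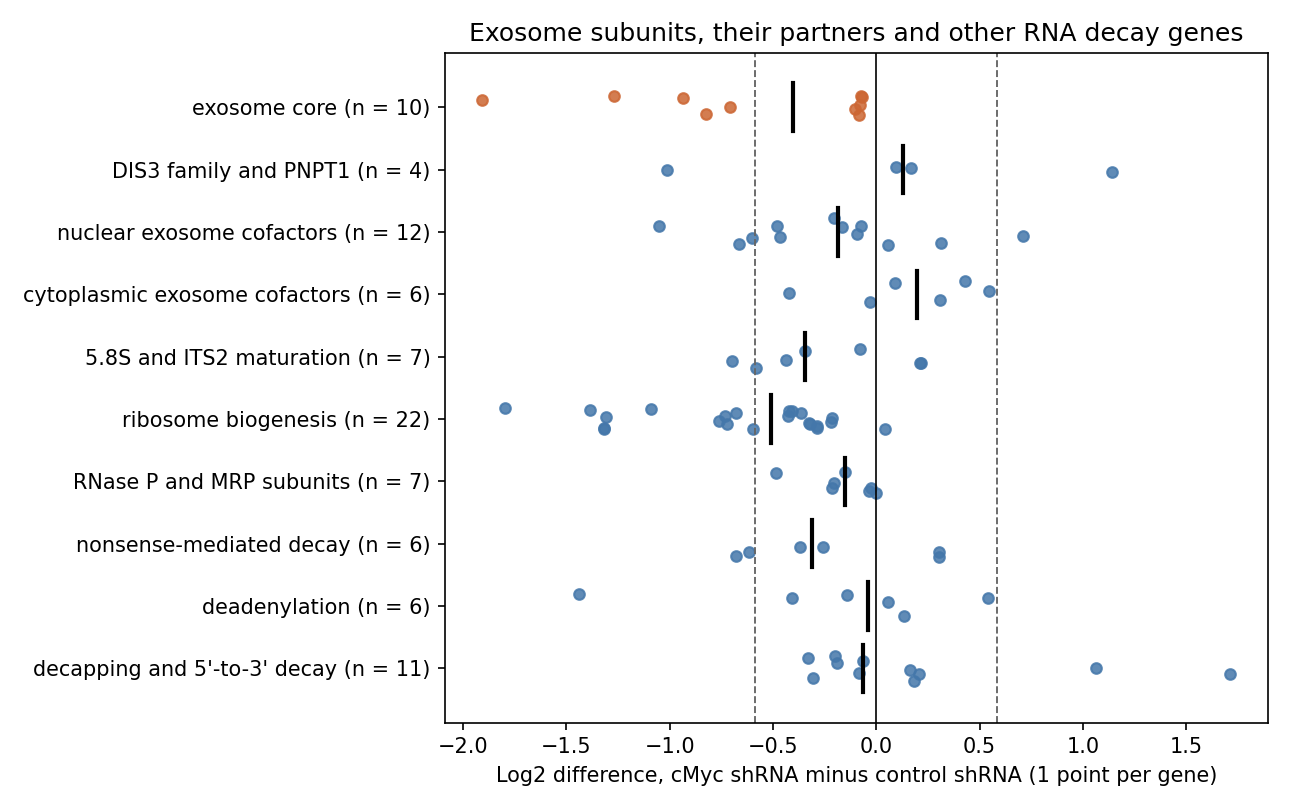
Log2 difference (cMyc shRNA minus control shRNA) of each measured gene in the exosome and in 9 lists of partner and RNA decay genes, 1 point per gene; black bars are list medians and dashed lines mark 1.5-fold in either direction. Of the exosome genes, 5 lie at -0.71 or lower and 5 at -0.10 or higher, and XRN1 and DCP2 stand apart at the right of the decapping list.

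Decapping and 5′-to-3′ decay had 11 measured genes of 19 and a median of -0.07 (0.20 with the mean of members). No gene passed 1.5-fold downward, against 11.9% of all measured genes, and 2 passed 2-fold upward, against 2.01%. XRN1, the cytoplasmic exonuclease that digests RNA from the end opposite to the exosome's, read 7.43 on the control array and 9.15 with the cMyc shRNA, a difference of 1.71 (3.28-fold higher). DCP2, the decapping enzyme that exposes RNA to XRN1, read 6.72 and 7.79, a difference of 1.06. XRN1 had 55 measured genes above it, whereas EXOSC2 had 61 below it. The lowest of that list were DCP1A (-0.33), EDC3 (-0.31) and DXO (-0.20). The nuclear exonuclease XRN2, chosen after its value was seen, differed by -0.07.

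Deadenylation, which removes the poly(A) tail before either route, had 6 measured genes of 19 and a median of -0.04 (-0.21 with the mean of members, 0.06 under the stricter filter). CNOT9, a subunit of the CCR4-NOT complex, read 7.57 and 6.14, a difference of -1.44 (2.71-fold lower). PARN, which also trims small noncoding RNAs, differed by -0.41 and PAN2 by -0.14, while PAN3, its partner, was highest at 0.54, followed by NOCT at 0.13. Nonsense-mediated decay had 6 measured genes of 16 and a median of -0.31, with 2 at least 1.5-fold lower, against 11.9% of all measured genes. Its central helicase UPF1 differed by -0.68, the junction complex subunit CASC3 by -0.62 and UPF2 by -0.37, and RBM8A and NBAS were highest at 0.30 each. These lists cover only their named part, since no catalytic CCR4-NOT subunit, LSM protein or SMG factor was among the genes analysed here.

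The exosome values stood beside large differences elsewhere on these arrays. Of 17 measured genes of mitosis, 16 were at least 2-fold lower on the cMyc shRNA array, against 4.0% of all measured genes. The list was chosen with earlier results of these data known, so nothing is read from that share. Its median was -2.38, and KIF20A (-3.12), PBK (-2.92) and TTK (-2.91) were lowest. Of 13 listed reference genes often used for scaling, only 5 had a probe set under their symbol, and all 5 were measured, with a median of -0.76. They ran from -1.04 for HPRT1 to 1.01 for B2M, whose other probe set differed by 0.53. TBP, a general transcription factor, differed by -1.01 and GAPDH by -0.19. EXOSC2 and EXOSC5 lay below all 5 of these reference genes, and EXOSC7, EXOSC8 and EXOSC9 lay within their range. In a bulk sample, fewer cells of a kind and less RNA per cell cannot be told apart. The part of cell cycle state in the exosome values was not tested.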

How the data were processed

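Gene expression was measured on 2 Affymetrix arrays, 1 per group. The deposited values are on a log2 scale (base inferred from their range, 1.41 to 13.9) and were made by the authors with Affymetrix Expression Console, per the submitters' processing notes; no source used here gives its version, background correction or normalization. The table has no detection calls, and the number of arrays limits the precision. Probe sets were named through GEO's platform annotation (16098 of 53617 with 1 symbol, 0 with several, 37519 unnamed here), and all 16098 Entrez identifiers were found in RefSeq GRCh38.p14. The probe set with the highest mean stood for a gene. No statistical test was made, and genes were counted at 1.5-fold and 2-fold. The 1.5-fold rule was also run on simulated data, and no result of that run is relied on here. Promoter sequences are RefSeq's. The planned comparison of protein sequences was not made. Members and lists were chosen with earlier results of these data known. Named genes are all members, MYC, the exonuclease and cytoplasmic lists in full, and of other lists up to the 3 lowest and 2 highest; cell type markers were chosen from their lists after their values were seen. Software was statsmodels 0.14.6 (loess), pandas 2.3.3, numpy 2.4.6, Python 3.11.15 and matplotlib 3.10.9. The alternatives were 3 scalings, a mean over probe sets, 2 level filters, means of members, a smaller fold rule and other motifs.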

Additional observations from a re-analysis of the deposited data

How the results depend on the processing

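Median centring, quantile normalization, loess and the mean over probe sets gave 40 values for the 10 members. All 40 lay within 0.34 of the value as deposited, the largest shift being 0.08, and 0 turned above 0. That shift is about as large as the differences of the 5 members near 0, so their direction is not readable. Small shifts were largely fixed in advance, so they are no check of the values. Median centring moves every gene alike, and the mean over probe sets can change EXOSC10 only. Sorted by size, the values of the 2 arrays differed by at most 0.12, which limits what quantile normalization can shift. Under quantile normalization EXOSC1 was at -0.004 and EXOSC3 at -0.01. All 10 members passed both level filters, so these could not change their counts. Under all these alternatives 10 members stayed below 0, 5 were at least 1.5-fold lower (also 5 under the smaller fold rule) and 2 at least 2-fold lower. The exosome median ran from -0.60 (mean of members) to -0.34, and the medians for deadenylation (-0.21 to 0.06) and decapping (-0.11 to 0.20) changed sign within the technical SD. The count of members with a promoter motif depends on the motif: 1 for CACGTG, 3 with CACGCG or CATGTG added, and, chosen after seeing the data, 4 for CCAAT and 7 for GGGCGG. No paired analysis was possible because each group has 1 array. Without replicates, no difference here, large or small, can be told from variation between cultures or infections. Differences near the technical SD also cannot be told from the disagreement between probe sets of the same gene, and there are no detection calls.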
